A study of Mus musculus with 9 samples.

Results

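The early gonad transcription factors described here are 9 genes, Lhx9, Lhx2, Emx2, Irx3, Irx5, Msx1, Msx2, Wt1 and Gata4, out of 18194 genes that had a probe set of their own on the arrays. A probe set is a group of short probes that together read 1 transcript. The 9 genes had 15 probe sets annotated to them alone, out of 45101 on the array. Where a gene had several, the one with the highest mean over the 9 arrays was used and the others served as a check.

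The grafts were wild-type XX ovaries of 13 dpc, isolated without the mesonephros, that had grown under the kidney capsule of adult male nude mice (BALB/c nu/nu) for 4, 7, 10, 15 or 20 days, and day 0 was the same kind of ovary before grafting. Days 0, 10 and 20 had duplicate arrays, days 4, 7 and 15 a single one, and each graft array held RNA pooled from approximately 10 grafts. All embryos, those of day 0 included, came from mothers given busulfan, a drug that kills germ cells, and the labels name the strain ICR whereas the methods name C57BL/6 and ICR. Grafted tissue also holds cells of the host, and the design has no ungrafted ovaries of a later age, so that grafting, age and the male host cannot be told apart. The labels do not say how many litters and hosts went into each pool. The p-values reflect only how far the duplicate pools of days 0, 10 and 20 differed within a day.

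These factors act when the gonad forms. LHX9, EMX2, WT1 and GATA4 work in the coelomic epithelium that thickens into the genital ridge, and mice lacking any of them fail to build a proper gonad. Irx3 and Irx5 are Iroquois homeobox genes that mark the pre-granulosa cells of the fetal ovary and later serve the contact between granulosa cells and oocyte. Msx1 and Msx2 are homeobox genes switched on by bone morphogenetic protein (BMP) signals, and in the fetal ovary they promote the entry of germ cells into meiosis.

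All 9 factors had a lower mean on day 20 than on day 0. Lhx9 and Msx2 had changed by -2.92 and -2.67 on the log2 scale by day 4, and Gata4 lay within its day 0 range until day 7. The day means of Lhx9, Msx1, Irx3, Emx2 and Wt1 were lower on each later day sampled. On day 20 replicate 2, however, Irx3 (10.60), Emx2 (10.78), Lhx9 (9.54) and Wt1 (11.63) lay above day 15 (10.46, 10.51, 9.08 and 11.41). Irx5 was above both day 0 arrays on days 4 and 7 and below them on days 15 and 20. For 7 of the 9 (all but Gata4 and Irx5), all 7 graft arrays lay under both day 0 arrays, which was also true of 24.0% of all genes.

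**Figure D1:**
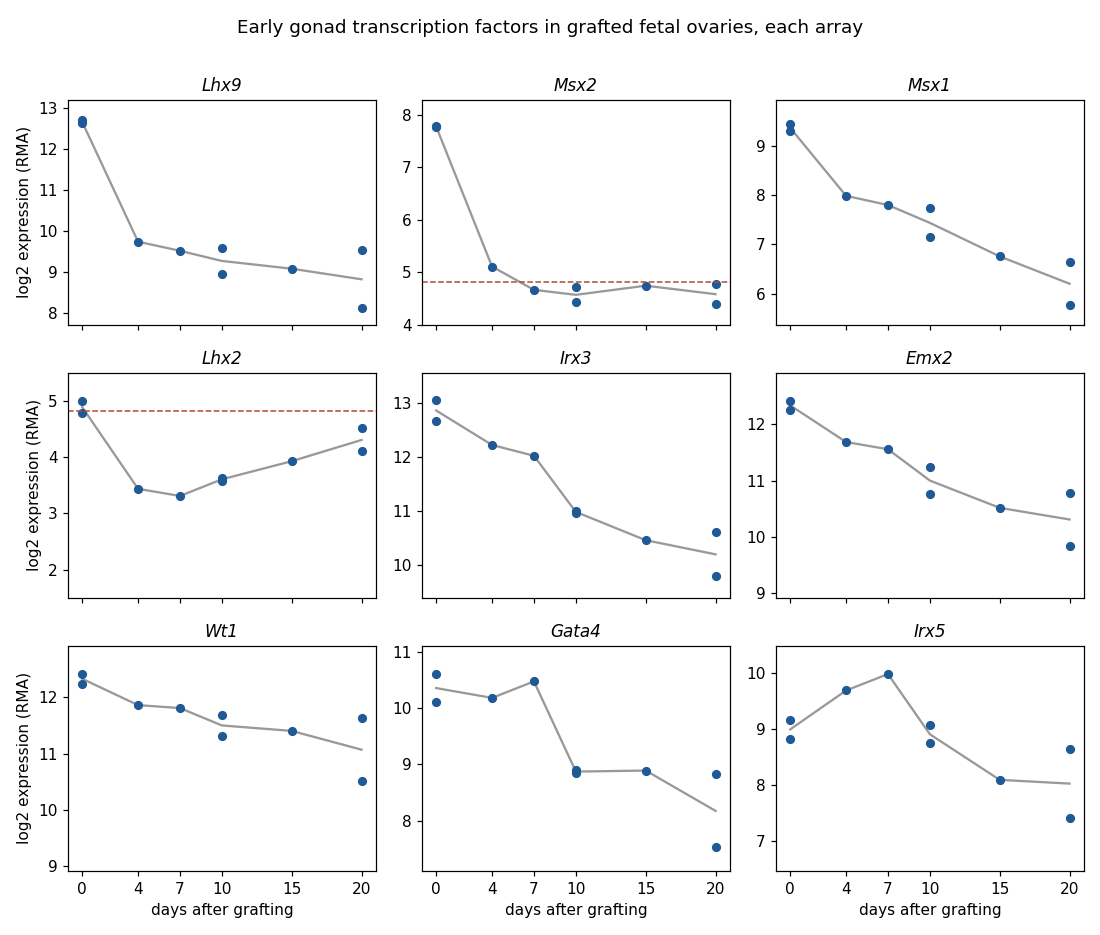
Each panel plots 1 factor, with days after grafting on the x axis and log2 expression on the y axis; points are single arrays, the grey line joins the day means, and the red dashed line, where shown, is 4.82, the level taken as close to background. Lhx9 and Msx2 lie lower from day 4 on, Gata4 from day 10 on, and Lhx2 lies at or under the dashed line on 8 of 9 arrays.

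The promoters of 3 members are shown to give the sequence upstream of genes called lower in early grafts (Lhx9, Msx2) and only on day 20 (Emx2). They run from 250 bases before to 50 bases after the start, 5′ to 3′ on the strand of the gene, from RefSeq on GRCm38.p6. Capitals mark matches, on either strand, to a GATA site (TGATAA or AGATAA), the homeodomain core TAATTA and the SMAD1/5 site GGCGCC.
Lhx9, chr1:138842395-138842694, minus strand: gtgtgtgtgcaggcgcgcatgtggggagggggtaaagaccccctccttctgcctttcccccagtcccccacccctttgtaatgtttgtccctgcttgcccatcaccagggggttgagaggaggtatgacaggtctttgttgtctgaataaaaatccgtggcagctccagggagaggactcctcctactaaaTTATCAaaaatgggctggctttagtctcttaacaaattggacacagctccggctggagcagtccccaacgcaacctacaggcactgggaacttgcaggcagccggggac
Msx2, chr13:53472731-53473030, minus strand: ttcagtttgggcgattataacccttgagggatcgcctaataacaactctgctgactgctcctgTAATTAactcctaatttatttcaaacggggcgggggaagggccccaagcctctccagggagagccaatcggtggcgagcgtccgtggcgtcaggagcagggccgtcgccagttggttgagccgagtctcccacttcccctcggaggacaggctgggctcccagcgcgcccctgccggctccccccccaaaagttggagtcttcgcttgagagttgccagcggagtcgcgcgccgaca
Emx2, chr19:59458440-59458739, plus strand: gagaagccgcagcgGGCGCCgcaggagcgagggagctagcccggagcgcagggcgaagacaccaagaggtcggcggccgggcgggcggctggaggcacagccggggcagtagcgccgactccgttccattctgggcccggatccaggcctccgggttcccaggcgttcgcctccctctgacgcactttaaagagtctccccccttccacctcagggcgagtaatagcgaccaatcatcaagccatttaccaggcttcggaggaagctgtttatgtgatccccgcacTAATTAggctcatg

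Entries were found for 6 of the 9 members (Lhx9, Lhx2, Emx2, Irx3, Msx1 and Msx2). The Lhx9 window holds 1 GATA match, a motif found in 18.6% of all 32851 promoter windows, and the Msx2 and Emx2 windows each hold 1 homeodomain core, found in 5.29% of windows. The Emx2 window also holds 1 SMAD match, found in 11.9% of windows, and 1 of the 2 Lhx2 windows holds 1 as well. A match to GCGGGGGCG or GCGTGGGCG, the site shared by EGR1 and WT1, was present in 1 Lhx2 window and in 3.47% of windows. The Irx3 and Msx1 windows hold none of these letters, and whether any match is bound was not measured.

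The values are normalized intensities on the log2 scale, where a difference of 1 is a 2-fold change, and levels of different genes are not set against each other, since probes differ in their response. A member was called when limma's moderated test gave an adjusted p under 0.05 over all 45101 probe sets and the fold exceeded 2. Changes are given as grafts minus day 0, with the standard error (SE) of the fit.

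No member was called higher in any comparison with day 0. Days 4, 7 and 15 had a single array each, and so wider errors than days 10 and 20. The spread in the fit came from the duplicates of days 0, 10 and 20, and days 4, 7 and 15 were assumed to vary alike. Against day 0, 1 of the 9 was called lower on day 4 (Msx2), where 0.155% of all probe sets were called lower, and 2 on day 7 (Msx2 and Lhx2), against 0.386%. With days 4 and 7 averaged as early grafts, 3 were called lower (Lhx9, Lhx2 and Msx2), against 0.654%. On day 10 there were 5 (those 3, Irx3 and Msx1), against 1.33%, and on day 15 there were 4 (Lhx9, Irx3, Msx1 and Msx2), against 0.800%. On day 20 there were 6 (Lhx9, Emx2, Irx3, Msx1, Msx2 and Gata4), against 3.10%. The median change of the 9 was -0.74 in early grafts, -1.48 on day 10 and -2.18 on day 20, where the medians over all 18194 genes were -0.092, -0.13 and -0.14.

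The calls rest on few arrays. Without either day 0 array, 0 members were called in early grafts and 1, Msx2, on days 10 and 20. Without a day 10 array, 1 was called in early grafts (Msx2), 4 on day 20 (Lhx9, Irx3, Msx1 and Msx2), and on day 10 either 1 (Msx2) or 0.

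**Figure D2:**
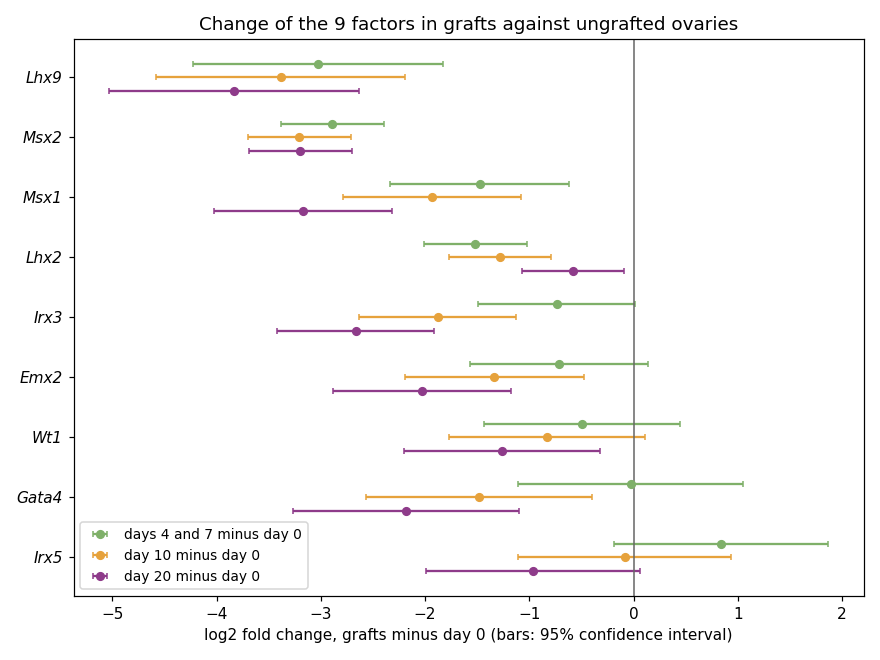
Each row is 1 factor and each point its log2 fold change, grafts minus day 0, in early grafts (days 4 and 7, green), on day 10 (orange) and on day 20 (purple), with bars for the 95% confidence interval of the fit. The 3 points of Lhx9 and of Msx2 lie between -3.83 and -2.89. Those of Lhx9, Irx3, Irx5, Emx2, Msx1, Wt1 and Gata4 move left with time. Those of Lhx2 come from values close to background.

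Lhx9, a LIM homeodomain factor without which no gonad forms, was lower in all grafts. It measured 12.69 and 12.62 on day 0, 9.74 on day 4, 9.52 on day 7, 8.96 and 9.59 on day 10, 9.08 on day 15 and 8.12 and 9.54 on day 20 (probe set 1419324_at, chromosome 1). Both day 0 arrays stood far above all graft arrays, which overlapped among themselves. The change was -3.03 in early grafts (SE 0.48, adjusted p = 0.0389) and -3.83 on day 20 (SE 0.48, adjusted p = 0.0111). On day 4 alone it was -2.92 with an adjusted p of 0.129 and the wider error of a single array (SE 0.59).

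After day 4, Lhx9 changed little from day to day. The difference between day 20 and early grafts was -0.81 (95% interval -2.0 to 0.39, adjusted p = 0.608), and no step between neighbouring days after day 4 exceeded the largest gap between duplicates, 1.42 on day 20. The other 3 probe sets of Lhx9 gave -2.97, -2.98 and -2.68 in early grafts and -3.68, -3.49 and -2.81 on day 20, and all 3 were called lower on day 20. In early grafts and on day 10, 2 of these 3 were called lower, and 1441313_x_at, a set with some probes that match other sequences, was not (adjusted p = 0.0525 and 0.0535).

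Lhx2, the closest relative of Lhx9, which restrains the growth of vessels in the fetal mouse ovary, was close to background. It measured 4.78 and 5.0 on day 0, 3.44 on day 4, 3.31 on day 7, 3.58 and 3.64 on day 10, 3.93 on day 15 and 4.10 and 4.51 on day 20. Of the 9 arrays, 8 were under 4.82, the 25th percentile of all values, and the day 0 mean was 0.074 above it. The fit called Lhx2 lower in early grafts (-1.52, SE 0.20, adjusted p = 0.0221) and on day 10 (-1.28, SE 0.20, adjusted p = 0.0285), but at this level the size of a change cannot be read. With values under 4.82 raised to it, neither call was possible, since the change left was -0.091, short of the 2-fold threshold. The graft values lay in the order day 7, 4, 10, 15, 20, lowest first, and on day 20 the change from day 0 was -0.58 (adjusted p = 0.131).

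Emx2, a homeobox gene needed for the urogenital ridge, was called lower on day 20 alone. It measured 12.26 and 12.41 on day 0, 11.68 on day 4, 11.56 on day 7, 11.24 and 10.76 on day 10, 10.51 on day 15 and 9.84 and 10.78 on day 20. All graft arrays lay under day 0, but the upper of the day 20 duplicates was level with the lower array of day 10. The change was -0.72 in early grafts (SE 0.35, adjusted p = 0.407), -1.34 on day 10 (adjusted p = 0.102), -1.82 on day 15 (adjusted p = 0.0987) and -2.03 on day 20 (SE 0.35, adjusted p = 0.0248). No single step between neighbouring days exceeded the largest gap between duplicates, 0.94.

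Emx2os, a transcript from the opposite strand of the Emx2 locus, followed a like course. It measured 9.77 and 9.34 on day 0, 9.01 on day 4, 8.46 on day 7, 8.02 and 7.64 on day 10, 7.34 on day 15 and 6.63 and 7.61 on day 20. Its change was -0.82 in early grafts (adjusted p = 0.368) and -2.44 on day 20 (SE 0.37, adjusted p = 0.0180). Whether the probe sets of both transcripts read only their own strand was not tested.

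The Iroquois genes Irx3 and Irx5, which lie near each other on chromosome 8, parted in the early grafts. Irx3 measured 13.06 and 12.66 on day 0, 12.22 on day 4, 12.02 on day 7, 11.001 and 10.96 on day 10, 10.46 on day 15 and 9.79 and 10.60 on day 20. Its change was -0.74 in early grafts (SE 0.30, adjusted p = 0.328), -1.88 on day 10 (SE 0.30, adjusted p = 0.0322) and -2.67 on day 20 (SE 0.30, adjusted p = 0.0086). Its largest step between neighbouring days, 1.04 lower on day 10 than on day 7, was the only one to exceed the largest gap between its duplicates (0.81).

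Irx5 measured 9.16 and 8.82 on day 0, 9.68 on day 4, 9.98 on day 7, 8.75 and 9.07 on day 10, 8.10 on day 15 and 7.42 and 8.64 on day 20. Days 4 and 7 lay above both day 0 arrays, day 10 overlapped them, and days 15 and 20 lay below. None of these differences passed the test: the change was 0.84 in early grafts (95% interval -0.19 to 1.86, adjusted p = 0.416), -0.086 on day 10 (adjusted p = 0.933) and -0.96 on day 20 (95% interval -1.99 to 0.060, adjusted p = 0.209). Between day 20 and early grafts the difference was -1.80 (95% interval -2.82 to -0.78), with an adjusted p of 0.166. The day 20 duplicates of Irx5 were 1.22 apart, more than any neighbouring days.

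The muscle segment homeobox genes Msx1 and Msx2 were both high on day 0 and lower in the grafts. Msx2 measured 7.79 and 7.77 on day 0, 5.11 on day 4, 4.67 on day 7, 4.71 and 4.42 on day 10, 4.74 on day 15 and 4.77 and 4.40 on day 20. The day 0 arrays differed by 0.021, the day 4 array was the highest of the grafts, and the 6 arrays of days 7 to 20 were all under 4.82, close to background. Against that floor Msx2 was at least 7.78-fold lower on days 7, 10, 15 and 20 than on day 0, and the fitted changes were -2.67 on day 4 (SE 0.24, adjusted p = 0.0186) and -3.20 on day 20 (SE 0.20, adjusted p = 0.0022). Msx2 was the 1 member called lower in each of the 6 comparisons with day 0.

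The second probe set of Msx2 did not show this fall. It was under 4.82 on all 9 arrays, and its change was -0.38 in early grafts and -0.54 on day 20 (adjusted p = 0.0988), so that the calls for Msx2 rest on 1 probe set.

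Msx1 measured 9.30 and 9.44 on day 0, 7.99 on day 4, 7.80 on day 7, 7.73 and 7.14 on day 10, 6.76 on day 15 and 5.76 and 6.64 on day 20. The first step, to day 4, was -1.38 and exceeded the largest gap between duplicates (0.87), and the later steps were each smaller than that gap. The change was -1.48 in early grafts (SE 0.35, adjusted p = 0.111), -1.93 on day 10 (SE 0.35, adjusted p = 0.0416) and -3.17 on day 20 (SE 0.35, adjusted p = 0.0076). The second probe set, 1417127_at, went the same way by less, with -0.74 in early grafts, -0.88 on day 10 and -1.31 on day 20 (SE 0.16, adjusted p = 0.0106), and was called lower on day 20. The set used, 1448601_s_at, is of the type whose probes can match more than 1 transcript.

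**Figure D3:**
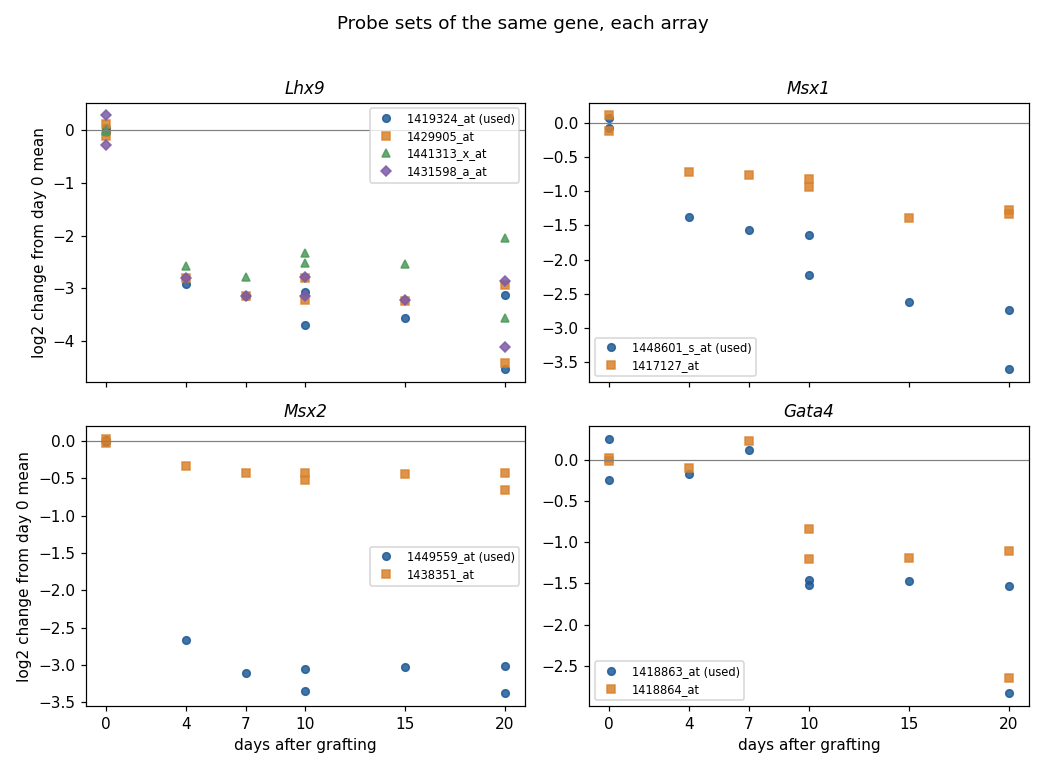
The panels plot all probe sets of Lhx9, Msx1, Msx2 and Gata4 as the log2 change from their own day 0 mean (y axis) by days after grafting (x axis), with 1 symbol per probe set and 1 point per array. The 4 sets of Lhx9 lie between -4.54 and -2.04 in all grafts, the second set of Msx1 changes less than the first, and the second set of Msx2, which is close to background, stays within 1 of day 0.

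Germ cells are a known site of Msx1 and Msx2 in the fetal ovary, and the day 0 arrays differed in germ cell RNA although both came from busulfan-treated mothers. The summed linear level of the 9 germ cell markers was 2202 and 7802 on the day 0 arrays, 825 on day 4, 1818 on day 7, 2422 and 8594 on day 10, 5477 on day 15 and 3722 and 5734 on day 20. The median change of the 9 markers from their day 0 means was -1.09 and 1.09 on the day 0 arrays themselves, -2.83 on day 4, -2.08 on day 7, -1.36 and 0.25 on day 10, -0.51 on day 15 and -1.12 and -0.18 on day 20. The markers did not move alike: Dppa3, a gene of primordial germ cells and oocytes, lay above both day 0 arrays on days 10, 15 and 20, while the meiotic genes Stra8 and Rec8 lay below both in all grafts. Sycp3, another meiotic gene of the list, changed by -1.10 in early grafts, 0.27 on day 10 and -0.94 on day 20. Of the 9, 1 was called in these comparisons, Rec8, a meiotic cohesin subunit, lower in early grafts (-1.70, adjusted p = 0.0242) and on days 10 and 20 (-3.43 and -3.74). Stra8, a gene switched on at meiotic entry, measured 6.58 and 9.63 on day 0 and between 5.21 and 5.73 in the grafts, and its change of -2.63 on day 20 was not called (adjusted p = 0.143). The part of germ cell RNA in the changes of Msx1 and Msx2 was not tested.

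Wt1, a zinc finger factor of gonad and kidney, was lower in all grafts by small steps. It measured 12.42 and 12.25 on day 0, 11.86 on day 4, 11.81 on day 7, 11.68 and 11.32 on day 10, 11.41 on day 15 and 10.51 and 11.63 on day 20. The upper array of day 20 was level with day 10, and the duplicates of day 20 were 1.12 apart. No change passed the test: it was -0.49 in early grafts (95% interval -1.43 to 0.44), -0.83 on day 10 (95% interval -1.77 to 0.11) and -1.26 on day 20 (95% interval -2.20 to -0.32, adjusted p = 0.101).

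Gata4, a zinc finger factor of the somatic cells of the gonad, lay within its day 0 range in early grafts and below it from day 10. It measured 10.61 and 10.11 on day 0, 10.18 on day 4, 10.48 on day 7, 8.90 and 8.84 on day 10, 8.89 on day 15 and 7.53 and 8.82 on day 20. Days 4 and 7 lay between the day 0 arrays, and all later arrays lay under them. The change was -0.028 in early grafts (95% interval -1.11 to 1.05), -1.48 on day 10 (SE 0.44, adjusted p = 0.134), -1.47 on day 15 (adjusted p = 0.245) and -2.18 on day 20 (SE 0.44, adjusted p = 0.0379). The step between days 7 and 10, -1.60, exceeded the largest gap between duplicates (1.30).

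The second probe set of Gata4 measured 7.5 and 7.54 on day 0, 7.42 on day 4, 7.74 on day 7, 6.31 and 6.67 on day 10, 6.33 on day 15 and 4.87 and 6.41 on day 20. It kept the same course, with changes of 0.061 in early grafts, -1.03 on day 10 and -1.88 on day 20, but was not called lower (adjusted p = 0.0727 on day 20).

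The comparison of day 20 with early grafts asks whether the factors went on falling within the grafts. None of the 9 was called lower by limma, where 0.0998% of all probe sets were. At an unadjusted p under 0.05, 5 had a lower mean (Emx2, Irx3, Irx5, Msx1 and Gata4) and 1, Lhx2, a higher mean. The share of all probe sets under that unadjusted threshold was not counted, so these numbers have no background to be read against. The values of Lhx2 on days 4, 7 and 20 were all under 4.82, so that no size is given. Gata4 differed by -2.16 (95% interval -3.24 to -1.07, adjusted p = 0.132) and Irx3 by -1.93 (95% interval -2.68 to -1.18, adjusted p = 0.0853). Lhx9 differed by -0.81, with an interval that includes 0. Msx2 was under 4.82 on day 7 and on both day 20 arrays, so that a further fall could not have been measured. With replicate 1 alone standing for day 20, the difference was -2.81 for Gata4 and -2.33 for Irx3. With replicate 2 alone it was -1.51 and -1.52.

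The 2 arrays of day 20 were not alike. On replicate 1, 8 of the 9 members were lower than on replicate 2 (all but Msx2), by a median of 0.94, and the median change of the 9 from day 0 was -2.83 on replicate 1 and -1.56 on replicate 2. Replicate 1 also carried kidney RNA: the summed linear level of 8 proximal tubule markers was 43823 there and 1377 on replicate 2, against 547 and 601 on day 0, and all 8 were higher on replicate 1. The sum of 8 markers of the loop, distal tubule and collecting duct was 7080 on replicate 1 and 403 on replicate 2, against 1717 and 2127 on day 0. The part of the kidney RNA in the lower values of replicate 1 was not tested.

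Wt1 and Emx2 are also genes of the kidney. They measured 10.51 and 9.84 on replicate 1, and 11.63 and 10.78 on replicate 2. The 6 podocyte markers, which mark the kidney cells that keep Wt1 in the adult, had a summed level of 3324 on replicate 1 and 2783 on replicate 2, against 6975 and 9087 on day 0. Their median change from day 0 was 0.26 on replicate 1 and -0.57 on replicate 2, and 4 of the 6 were higher on replicate 1. On replicate 2 alone the changes from day 0 were -3.12 for Lhx9, -3.38 for Msx2, -2.73 for Msx1, -2.26 for Irx3, -1.56 for Emx2, -1.53 for Gata4, -0.70 for Wt1, -0.38 for Lhx2 and -0.35 for Irx5. All 6 members called lower on day 20 were also called without replicate 1, a fit in which day 20 has 1 array and its spread is taken from the other days.

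**Figure D4:**
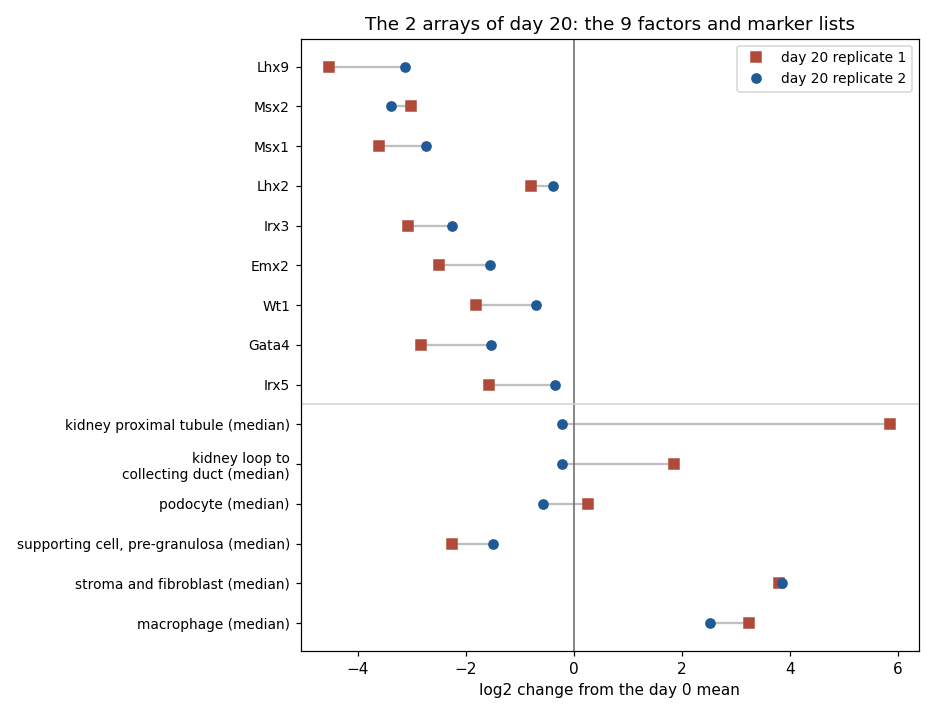
Each row gives the log2 change from the day 0 mean (x axis) on the 2 arrays of day 20, replicate 1 (red squares) and replicate 2 (blue circles), for the 9 factors (top) and for the medians of 6 marker lists (bottom). All factors except Msx2 lie further left on replicate 1, where the kidney proximal tubule median lies at 5.86, against -0.21 on replicate 2.

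The makeup of the tissue changed with the members. The summed linear level of 8 stroma and fibroblast markers lay between 70006 and 88977 in the grafts, against 12632 and 14344 on day 0, and that of 7 macrophage markers between 8567 and 29758, against 1422 and 2091. The sum of 8 pre-granulosa markers was 33967 on day 4, 28851 on day 7, between 20201 and 25821 on days 10 and 15, and 9585 and 20100 on day 20, against 33448 and 34126 on day 0, and 5 of these 8 genes were called lower on day 20. Foxl2, a forkhead factor of the same list that maintains granulosa cells, lay above both day 0 arrays in all grafts, with 11.44 and 11.58 on day 0, 12.84 on day 4, 12.93 on day 7, 12.92 and 12.68 on day 10, 12.76 on day 15 and 11.71 and 12.98 on day 20. It was not called with all arrays (0.83 on day 20, adjusted p = 0.265), but without day 20 replicate 1 it was called higher in early grafts and on days 10 and 20, and 4 of the list were called lower on each of these later days. Of 7 markers of granulosa cells in growing follicles, 4 were called higher in early grafts and on days 10 and 20 (Inha, Nr5a2, Hsd17b1 and Slc18a2). Amh, Inhbb and Fshr were not called, with -0.15, -0.48 and -0.18 in early grafts and 0.12, 0.51 and 0.78 on day 20. The summed level of all 7 lay between 7665 and 21223 in the grafts, against 2633 and 2437 on day 0. In whole tissue, fewer cells of a type and less RNA per cell cannot be told apart, and the part of this makeup in the members' changes was not tested.

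Since LHX9, EMX2, WT1 and GATA4 act in the coelomic epithelium, 10 markers of that epithelium and of the ovarian surface were read beside the members. Their median change was -0.29 in early grafts and -0.44 on day 20, and on each of these, 2 were called higher (Msln and Gpm6a) and 2 lower (Krt7 and Lrrn4). Msln, the gene for mesothelin, measured between 7.25 and 7.75 in all grafts, against 5.04 and 5.10 on day 0. Lrrn4, a mesothelial membrane protein, changed by -3.01 in early grafts (adjusted p = 0.0153) and by -1.83 on day 20 (adjusted p = 0.0326). Without day 20 replicate 1, the same 2 genes were called higher on day 20 and none lower.

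Of 15 other regulators of the early gonad and partners of the members, 13 had a probe set of their own. The number called lower by limma was 0 in early grafts, 2 on day 10 and 5 on day 20, with none called higher. At an unadjusted p under 0.05, 4 were lower and 1 (Lmo4) higher in early grafts, and the share of all probe sets under that threshold was not counted. Nr0b1, which encodes the nuclear receptor DAX1, measured 10.44 and 9.90 on day 0, 9.27 on day 4, 8.77 on day 7, 8.29 and 7.62 on day 10, 7.87 on day 15 and 6.72 and 8.22 on day 20, a change of -2.70 on day 20 (SE 0.53, adjusted p = 0.0363). Nr5a1, the nuclear receptor SF1 whose gene LHX9 and WT1 activate in the mouse gonad, changed by -0.73 in early grafts (adjusted p = 0.302), by -1.50 on day 10 (adjusted p = 0.0487) and by -2.03 on day 20 (adjusted p = 0.0150).

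Cbx2, a polycomb protein of the gonad, changed by -1.31 on day 10 (adjusted p = 0.0390) and by -1.23 on day 20 (adjusted p = 0.0313), and Six4, a homeobox gene that acts upstream of Nr5a1, by -1.23 on day 20 (adjusted p = 0.0396). Zfpm2, which encodes the GATA4 partner FOG2, changed by 0.36 in early grafts (adjusted p = 0.721) and by -0.28 on day 20 (adjusted p = 0.655). The cofactors that join LIM homeodomain proteins gave -0.98 for Ldb1 (adjusted p = 0.0265) and -1.0 for Ldb2 (adjusted p = 0.0423) on day 20, just short of the 2-fold threshold, and 0.92 for Lmo4, a LIM-only competitor (adjusted p = 0.0518). Without day 20 replicate 1, 2 of the 5 regulators were still called lower on day 20 (Nr5a1 and Emx2os).

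The paralogues of the members gave few calls. Of 18 measured, 4 (Irx1, Irx4, Irx6 and Lhx5) were under 4.82 on all arrays, and on day 20 there was 1 called higher, Lhx8, and 1 called lower, Gata1 (-1.07, adjusted p = 0.0479). Without day 20 replicate 1, Lhx8 was called higher and no paralogue lower. Lhx8, a LIM homeobox gene of oocytes, measured 4.11 and 4.46 on day 0, 4.61 on day 4, 7.24 on day 7, 7.58 and 9.65 on day 10, 9.5 on day 15 and 9.37 and 9.89 on day 20, so that its fold against a day 0 level near background is uncertain in size. Its fitted change on day 20 was 5.35 (SE 0.66, adjusted p = 0.0104), opposite in sign to those of Lhx9 and Lhx2. Gata6, the close relative of Gata4 in the ovary, measured 11.87 and 11.31 on day 0, 11.70 on day 4, 11.87 on day 7, 11.47 and 11.18 on day 10, 11.08 on day 15 and 10.23 and 11.38 on day 20, and was not called in any comparison.

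Msx1 and Msx2 respond to BMP signals, in which a ligand binds paired receptors and SMAD1, SMAD5 and SMAD9 carry the signal to targets such as the Id genes. Of 21 BMP pathway genes, 2 were called lower in early grafts (Bmp2 and Id1), 3 on day 10 and 3 on day 20 (Bmp2, Id1 and Fst), and none was called higher, while the list's median change was -0.19, -0.35 and -0.37. Bmp2, a ligand made by pre-granulosa cells of the fetal ovary, measured 11.26 and 11.09 on day 0, 9.38 on day 4, 8.53 on day 7, 8.71 and 8.86 on day 10, 9.39 on day 15 and 8.16 and 9.05 on day 20. All graft arrays lay under both day 0 arrays, and the change was -2.22 in early grafts (SE 0.31, adjusted p = 0.0253) and -2.57 on day 20 (SE 0.31, adjusted p = 0.0097).

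Among the targets, Id1 measured 10.89 and 11.05 on day 0, 9.38 on day 4, 9.55 on day 7, 9.52 and 9.77 on day 10, 9.85 on day 15 and 9.70 and 9.80 on day 20. Id1 was lowest on day 4, and its change was -1.50 in early grafts (SE 0.17, adjusted p = 0.0146) and -1.22 on day 20 (SE 0.17, adjusted p = 0.0143). Id3 gave -0.97 in early grafts and Id2 gave -0.10, neither of which passed the test (adjusted p = 0.112 and 0.881). The inhibitory SMAD genes, which BMP signals also induce, gave -0.93 for Smad6 and -0.69 for Smad7 in early grafts (adjusted p = 0.192 and 0.142).

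Fst, the secreted antagonist follistatin, was called lower on day 20 and not in early grafts. It measured 12.28 and 12.41 on day 0, 12.12 on day 4, 11.28 on day 7, 10.69 and 10.46 on day 10, 10.51 on day 15 and 10.05 and 10.04 on day 20, where both arrays agreed. Its change was -0.64 in early grafts (adjusted p = 0.133) and -2.30 on day 20 (SE 0.16, adjusted p = 0.0028). Of the receptor genes, Bmpr1b gave -1.31 and Acvr1 0.61 in early grafts, neither called (adjusted p = 0.130 and 0.254). On day 20, Bmpr1b gave 0.91 and was not called (adjusted p = 0.150). The receptor genes Bmpr1a and Bmpr2 gave 0.15 and 0.57 in early grafts, neither called, and without day 20 replicate 1, Bmpr2 was called higher on day 20 beside the same 3 genes called lower.

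**Figure D5:**
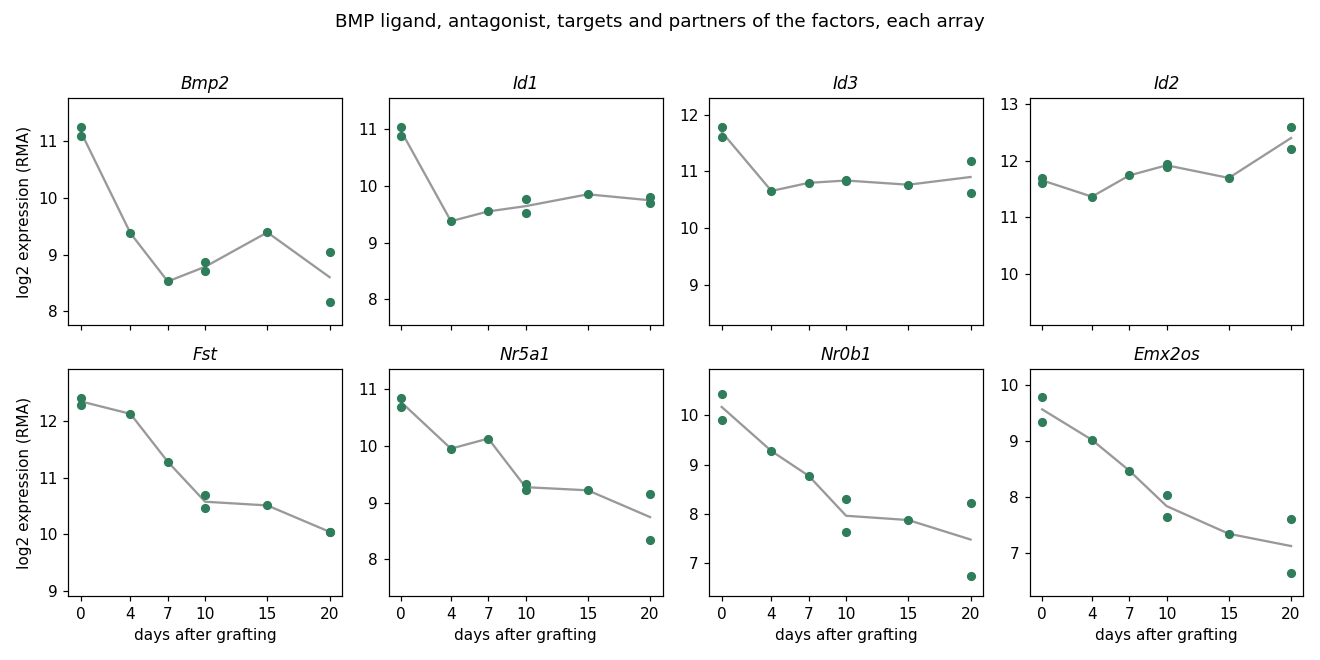
Log2 expression (y axis) by days after grafting (x axis) of Bmp2, the BMP targets Id1, Id3 and Id2, the antagonist Fst, and Nr5a1, Nr0b1 and Emx2os; points are single arrays and the grey line joins the day means. Bmp2 and Id1 lie lower from day 4 on, and Fst, Nr5a1, Nr0b1 and Emx2os have their lowest day means on day 20. For Nr0b1 and Emx2os, however, day 20 replicate 2 lies above day 15.

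The likeness of other genes to each member was measured as Pearson's r over the 9 arrays, among 11307 genes (11308 for Lhx2 and Msx2) with a mean above the median of all probe sets. The arrays share the step from ovary to graft and the kidney RNA of 1 array, so that high values are common and are given as a description. The closest genes were Rpl22l1, Znrd2 and Aaas for Lhx9 (r of 0.997, 0.99 and 0.99), Ptgr1, Mief2 and Smpd5 for Emx2 (each 0.99), Hmg20b, Snord104 and Ndufa7 for Irx3 (each 0.99) and Zbtb12, Myl9 and Crtc1 for Irx5 (0.98, 0.98 and 0.97). They were Numb, B3gnt5 and Frem2 for Msx1, Pidd1, Igdcc3 and Cdh3 for Msx2, Srsf12, Plxdc1 and Nono for Wt1, and Ifitm2, Aida and Tspyl2 for Gata4, all with r of 0.99, and Pld1, C1qbp and Atad3a for Lhx2, each with r of 0.97. An r over 0.9 was reached by 1032 genes for Emx2, 718 for Lhx9 and 360 for Msx2, but by only 39 for Irx5 and 39 for Lhx2.

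Within the members, the courses of Emx2 and Msx1 (r of 0.98) and of Emx2 and Irx3 (0.97) were the most alike, and those of Irx5 and Lhx2 the least (-0.33). Lhx9 was closest to Msx2 (0.94). Irx5 was closest to Gata4 (0.84), the other factor that was not lower in early grafts. These values have no test, since all members were read on the same 9 arrays.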

How the data were processed

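RNA of grafts and of ungrafted ovaries was measured on 9 Affymetrix Mouse Genome arrays. The authors deposited log2 values after robust multiarray analysis (background correction, quantile normalization and a summary over the probes of each set), of a version that the sources used here do not give. Labelling used 1 of 2 kits, and the kit of each array is not given. Array medians lay between 6.49 and 6.63, and the difference between duplicates had a standard deviation of 0.45, 0.34 and 0.70 on days 0, 10 and 20. No call of detection comes with the values, the number of arrays limits the precision, and values under 4.82, the 25th percentile of all values, are treated as close to background.

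Samples were grouped by day. The limma fit (version 3.58.1, R 4.3.3) had 1 mean per day over all 45101 probe sets, the 64 control sets included, with eBayes moderation (3 residual and 2.69 prior degrees of freedom) and Benjamini-Hochberg adjustment. Calls needed an adjusted p under 0.05 and a fold over 2. Early grafts are the mean of days 4 and 7. The code of the fit was run on simulated data with equal spread on all arrays, which does not bear on the calls reported here. Python 3.11.15 served for tables and plots, with matplotlib 3.10.9, numpy 2.4.6 and pandas 2.3.3. In the annotation, 34958 probe sets carry 1 gene symbol, 932 several and 9211 none.

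The members and gene lists were chosen with earlier results of these data known. The genes named are the 9 members, up to 4 genes of each other list with the largest change among those called on day 20 or in early grafts, the partners, antisense transcript and BMP targets of the members, and the 3 genes most like each member over the 9 arrays, without predicted or RIKEN names. Other genes of these lists (Gata6, Foxl2, Dppa3, Stra8, Sycp3, Smad6, Smad7, Bmpr1a, Bmpr1b, Bmpr2, Acvr1, Amh, Inhbb and Fshr) were named after their values were seen. The replicate numbers did not pair the arrays (the deviations of same-numbered arrays correlated at -0.16, 0.15 and -0.13), so the main fit has no block. Alternatives were an intensity trend, array weights, centring, quantile normalization, a filter and a floor on low values, a replicate block, other fold thresholds, genes in place of probe sets, other probe sets, only the days compared, and each duplicate left out. The counts of the gene lists without day 20 replicate 1 were added after seeing the data.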

Additional observations from a re-analysis of the deposited data

How the results depend on the processing

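Of 63 changes of members (9 members in 7 comparisons), 58 kept their direction under all alternatives. The intensity trend, array weights, fold thresholds, filter, genes in place of probe sets and only the days compared leave these differences unchanged by construction. So does leaving out an array of a day not compared, so these settings are no check on direction. The change of Lhx2 between day 20 and early grafts was 0 with the floor. The other 4 were small: without 1 day 0 array, Gata4 ranged from -0.42 to 0.075 on day 4, from -0.13 to 0.37 on day 7 and from -0.28 to 0.22 in early grafts, where it was 0.096 with the replicate block and 0.061 with the second probe set. With 1 array left out, Irx5 on day 10 ranged from -0.25 to 0.082, with 0.074 without day 10 replicate 1. The number of members called moved more. On day 4 (1 called) it was 2 with an intensity trend, 3 with array weights, 0 with the filter on low values, 0 with the replicate block, 2 with genes in place of probe sets, 0 with second probe sets and 0 with only the days compared. On day 7 (2 called) it was 1 with quantile normalization, the filter, the floor, the replicate block or second probe sets, and 0 with only the days compared. In early grafts (3) it was 1 with the filter, the floor or the replicate block and 0 with only the days compared. On day 10 (5) it was 3 with the filter, the replicate block or second probe sets and 1 with the floor, and on day 15 (4) it was 1 with the floor or the replicate block, 2 with second probe sets and 0 with only the days compared. On day 20 (6) it was 1 with the floor, and for day 20 against early grafts (0) it was 1 with genes in place of probe sets. The members no longer called on day 20 with the floor (Lhx9, Emx2, Irx3, Msx1 and Gata4) have no array under it, so that their values were unchanged. Over all probe sets, 944 were called on day 20 with the floor, against 3433 in the main fit. With 1 duplicate left out, the counts ranged from 0 to 3 on day 4, 0 to 3 on day 7, 0 to 4 in early grafts, 0 to 7 on day 10, 0 to 5 on day 15, 1 to 8 on day 20 and 0 to 6 for day 20 against early grafts. The filter tested 7 of the 9 members, settings that leave out arrays fit fewer arrays, and for the others the cause was not tested. Under second probe sets, only Lhx9, Msx1, Msx2 and Gata4 had another set to use, and the other members kept their main one. Over all probe sets, 3433 were called on day 20, 2994 with the replicate block and 6319 without day 20 replicate 2, and on day 10 it was 1892, with 1405 under the replicate block. The replicate numbers do not pair the arrays, so that a call lost under the block is no sign of a weaker effect. The limits are 2 arrays at most per day, a single array on days 4, 7 and 15, and, for Lhx2 and Msx2, values close to background.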
